A study of Homo sapiens with 47 samples.

Results

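PC-3 cells held for 24 h at 0.2 or 0.5% oxygen (O2), the lowest levels above 0% in the study, were compared with their own normoxia controls across microRNAs (miRNAs). The members are 8 of the study's 47 small RNA libraries and were taken by their labels: hypoxia at 0.2% and at 0.5% O2, and a normoxia (95% air) control set belonging to each level, with 2 replicates of each. PC-3 is a human prostate cancer cell line that comes, per the labels, from a bone metastasis, and it is known to lack the androgen receptor. The other libraries used for comparison were PC-3 at 0, 1, 2 and 5% O2 with a control set per level, and the 22Rv1 line, labelled as a subline of the CWR22R xenograft, at 0.2 and 0.5% O2 with its controls. All groups shared the medium and the small RNA library kit, and the labels name no drug and no engineered allele in any group. Each line was grown in culture, without the stroma or blood supply of a tumour. Whether replicates were separate cultures is not stated in the labels, so the p-values reflect only how far these samples varied, and that variation may be technical.

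A miRNA is cut from a hairpin precursor by the enzymes Drosha and Dicer, which leave a short duplex of the 5p and the 3p arm. Usually the more stable arm is loaded into an Argonaute protein and pairs with messenger RNAs mainly through its seed, the bases at positions 2 to 8, which lowers the output of those messengers, while the other arm is largely degraded. In low oxygen the HIF transcription factors escape degradation and switch on genes of glycolysis, blood vessel growth and survival. MIR210 is the best known HIF target among miRNA genes, and its product represses the iron-sulphur scaffold protein ISCU and thereby mitochondrial respiration.

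The mature sequences of the miRNAs on which the results turn are shown so that family members with a shared seed can be read together. They run 5′ to 3′, come from RefSeq (GRCh38.p14), and have the seed in capitals. The first set holds miRNAs that were higher in hypoxia, in which miR-181c-5p and miR-181d-5p share the seed ACAUUCA.
miR-210-3p: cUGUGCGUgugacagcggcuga
miR-210-5p: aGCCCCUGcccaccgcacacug
miR-193b-3p: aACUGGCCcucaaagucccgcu
miR-27a-5p: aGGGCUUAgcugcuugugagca
miR-27a-3p: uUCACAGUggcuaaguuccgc
miR-181c-5p: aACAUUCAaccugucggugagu
miR-181d-5p: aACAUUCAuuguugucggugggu
miR-181c-3p: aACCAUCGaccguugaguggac
miR-3919: gCAGAGAAcaaaggacucagu
miR-34a-5p: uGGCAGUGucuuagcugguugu

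The second set holds miRNAs that were lower in hypoxia, in which the let-7 arms share the seed UAUACAA. miR-27b-5p is the counterpart of miR-27a-5p from the paralogous cluster and differs from it inside the seed.
miR-27b-5p: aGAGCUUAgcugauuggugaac
miR-181a-3p: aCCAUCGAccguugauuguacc
miR-29b-1-5p: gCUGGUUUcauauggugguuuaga
miR-92a-1-5p: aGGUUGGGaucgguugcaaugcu
miR-20a-5p: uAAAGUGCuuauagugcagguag
miR-222-5p: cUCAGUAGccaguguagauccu
miR-1247-5p: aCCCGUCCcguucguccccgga
let-7b-3p: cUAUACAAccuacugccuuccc
let-7a-3p: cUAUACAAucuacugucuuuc

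The 8 libraries held between 1930784 and 3571778 counts, and between 807 and 881 of the 1006 miRNA entries had at least 1 count. Between 40.8 and 44.0% of a library's counts fell on its 5 leading miRNAs, and the scaling factors of the libraries lay between 0.953 and 1.055. The 0.2% pair of replicate 2 had the highest factors (1.055 in hypoxia, 1.049 in normoxia) and the smallest shares on leading miRNAs (40.8 and 41.5%). Its hypoxia library was also the shallowest. Counting error alone would give a chi-square of about 1 per degree of freedom between replicates of a group, and the values found were 32.1 to 64.4. The epithelial markers, among them miR-200 family members and miR-205-5p, summed to 98650 to 110300 CPM (counts as a share of the library, put on a common total) in hypoxia and 95050 to 102900 CPM in normoxia, and none of their 15 tested entries was called. Markers of smooth muscle or stroma (23.1 to 41.1 CPM in hypoxia, 20.3 to 25.6 CPM in normoxia) were low, with miR-145-5p at 0.380 CPM or less.

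Of 416 miRNAs tested, 54 (13.0%) differed between hypoxia and normoxia at a Benjamini-Hochberg adjusted p below 0.05 by edgeR's quasi-likelihood test with the 4 pairs of library as blocks. A total of 29 (6.97%) were higher in hypoxia and 25 (6.01%) were lower, and the median log2 fold change of all tested miRNAs was -0.00083. The 29 hold miR-365a-3p and miR-365b-3p, whose counts are identical, so the same reads enter these totals as separate entries. Other tested entries with identical counts, such as miR-1268a and miR-1268b, were likewise kept. All 4 hypoxia libraries lay above all 4 normoxia libraries for 22 miRNAs (5.29%), of which 20 were called, and below them for 16 (3.85%), of which 13 were called. The changes were small, and the 5 most abundant miRNAs were not among them. In bulk RNA, a change in every cell and a change in a share of the cells cannot be told apart. miR-21-5p, the most abundant, differed by -0.03 on the log2 scale (adjusted p = 0.704, edgeR), and miR-191-5p by -0.06, miR-182-5p by 0.11, let-7a-5p by 0.06 and miR-22-3p by 0.13, none of them called. With library size alone as the scaling, 28 miRNAs were called higher and 40 lower. Without the pair block 26 were called, all of them among the 54, and 32 were called when either pair of the 0.2% level was left out.

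Both arms of miR-210 rose. In all that follows, values of 4 libraries are CPM after scaling with trimmed means of M values (TMM) and run from 0.2% O2 replicates 1 and 2 to 0.5% O2 replicates 1 and 2. miR-210-3p, the arm that represses ISCU, had 1092, 1000.5, 1011 and 857 CPM in hypoxia and 587, 527, 583 and 405 CPM in normoxia. Every hypoxia library was above every normoxia library, and the means were 990.1 ± 97.6 and 526 ± 84.7 CPM (SD, n = 4 each), which is 1.89-fold (log2 0.92 ± 0.061 SE, adjusted p = 1.76e-08, edgeR). The rarer arm miR-210-5p had 140.5, 105, 104 and 111 CPM in hypoxia and 62.1, 70.2, 54.0 and 42.4 CPM in normoxia. These groups did not overlap either, and the change was 2.02-fold (log2 1.01 ± 0.11 SE, adjusted p = 7.21e-06, edgeR).

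MIR210 lies at chr11:568089-568198 on the minus strand (GRCh38.p14), inside the noncoding host gene MIR210HG. HIF binds DNA at short sites with the core letters ACGTG or GCGTG, and the window around the start of MIR210HG is shown because both arms of miR-210 moved together. It runs from 250 bases before to 50 bases after the start (chr11:568408-568707, minus strand, RefSeq, GRCh38.p14), with matches to either core in capitals.
MIR210HG: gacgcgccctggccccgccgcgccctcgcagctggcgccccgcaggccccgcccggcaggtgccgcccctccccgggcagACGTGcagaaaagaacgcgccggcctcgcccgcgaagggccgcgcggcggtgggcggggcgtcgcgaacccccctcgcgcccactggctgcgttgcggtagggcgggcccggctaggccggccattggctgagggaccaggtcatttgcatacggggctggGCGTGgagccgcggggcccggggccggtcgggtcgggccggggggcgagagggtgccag
Both strands were searched, and the window held 1 match to ACGTG and 1 to GCGTG. Among 35116 RefSeq windows of 300 bases, 21.4% held ACGTG, 36.5% held GCGTG and 48.4% held at least 1 of them, so a match is common. The same windows of the host genes MIR23AHG and MIR193BHG held neither. No binding was measured in these data.

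miR-193b-3p, which represses the urokinase gene PLAU and restrains growth of prostate cancer cells, had 75.1, 119.8, 98.9 and 117 CPM in hypoxia and 43.5, 59.2, 61.7 and 73.0 CPM in normoxia. The groups did not overlap, and the change was 1.73-fold (log2 0.79 ± 0.089 SE, adjusted p = 1.04e-05, edgeR). miR-365a-3p, the neighbour of miR-193b in its cluster at chr16:14303967-14309371, had 42.5, 55.5, 41.6 and 47.9 CPM in hypoxia and 25.9, 39.9, 34.01 and 35.8 CPM in normoxia. It rose by log2 0.48 ± 0.11 SE (adjusted p = 0.00739, edgeR), a miRNA picked after its values were seen. miR-365b-3p, from another gene, has identical counts in the deposited table, so these reads cannot be assigned to the chromosome 16 copy. The miR-365a-3p call was lost without the 0.2% pair of replicate 1 (adjusted p = 0.0690) or of replicate 2 (0.0583), with DESeq2 (0.0917) and without the pair block (0.0876).

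The cluster of miR-23a, miR-27a and miR-24-2 (chr19:13836287-13836659, minus strand) is transcribed as 1 precursor and is linked to androgen signalling in prostate cells. All 6 of its tested miRNAs had positive log2 fold changes, and 3 of them were called higher. Of all 416 tested miRNAs, 208 were positive and 6.97% were called higher. miR-27a-5p, its minor arm, had 174, 137, 173 and 143 CPM in hypoxia and 107, 97.5, 118 and 95.5 CPM in normoxia. The groups were separate, and it rose 1.51-fold (log2 0.59 ± 0.075 SE, adjusted p = 4.16e-05, edgeR). The abundant arm miR-27a-3p had 7254, 8818, 7875 and 10718 CPM in hypoxia and 5767, 7141, 7229 and 8850.4 CPM in normoxia. Its groups overlapped although each hypoxia library was above its own control, and it rose by log2 0.26 ± 0.054 SE (adjusted p = 0.00308, edgeR), a call lost without the pair block and with the authors' scaling factors. miR-24-3p, which can also come from the cluster on chromosome 9, had 28442, 31479, 32076 and 30158 CPM in hypoxia and 25416, 25287, 24502 and 29106 CPM in normoxia. It rose by log2 0.23 ± 0.060 SE (adjusted p = 0.0145, edgeR), a call lost with the authors' factors (0.144), without the pair block (0.0919) and without the 0.2% pair of replicate 1 (0.0523) or 2 (0.146). miR-23a-3p, at log2 0.11, was not called (adjusted p = 0.192, edgeR).

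The paralogous cluster of miR-23b, miR-27b and miR-24-1 (chr9:95085208-95086088) held a member that fell. miR-27b-5p had 82.5, 63.8, 75.2 and 69.1 CPM in hypoxia and 111, 109, 104 and 95.5 CPM in normoxia. Every hypoxia library was below every normoxia library, and it fell by 0.52 on the log2 scale (SE 0.086, adjusted p = 0.000404, edgeR). Its abundant partner miR-27b-3p, which has the same seed as miR-27a-3p, differed by log2 0.05 (adjusted p = 0.557, edgeR) and was not called. The summed level of the seed UCACAGU, which miR-27a-3p and miR-27b-3p share, was 23405 CPM in hypoxia and 21465 CPM in normoxia.

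**Figure D1:**
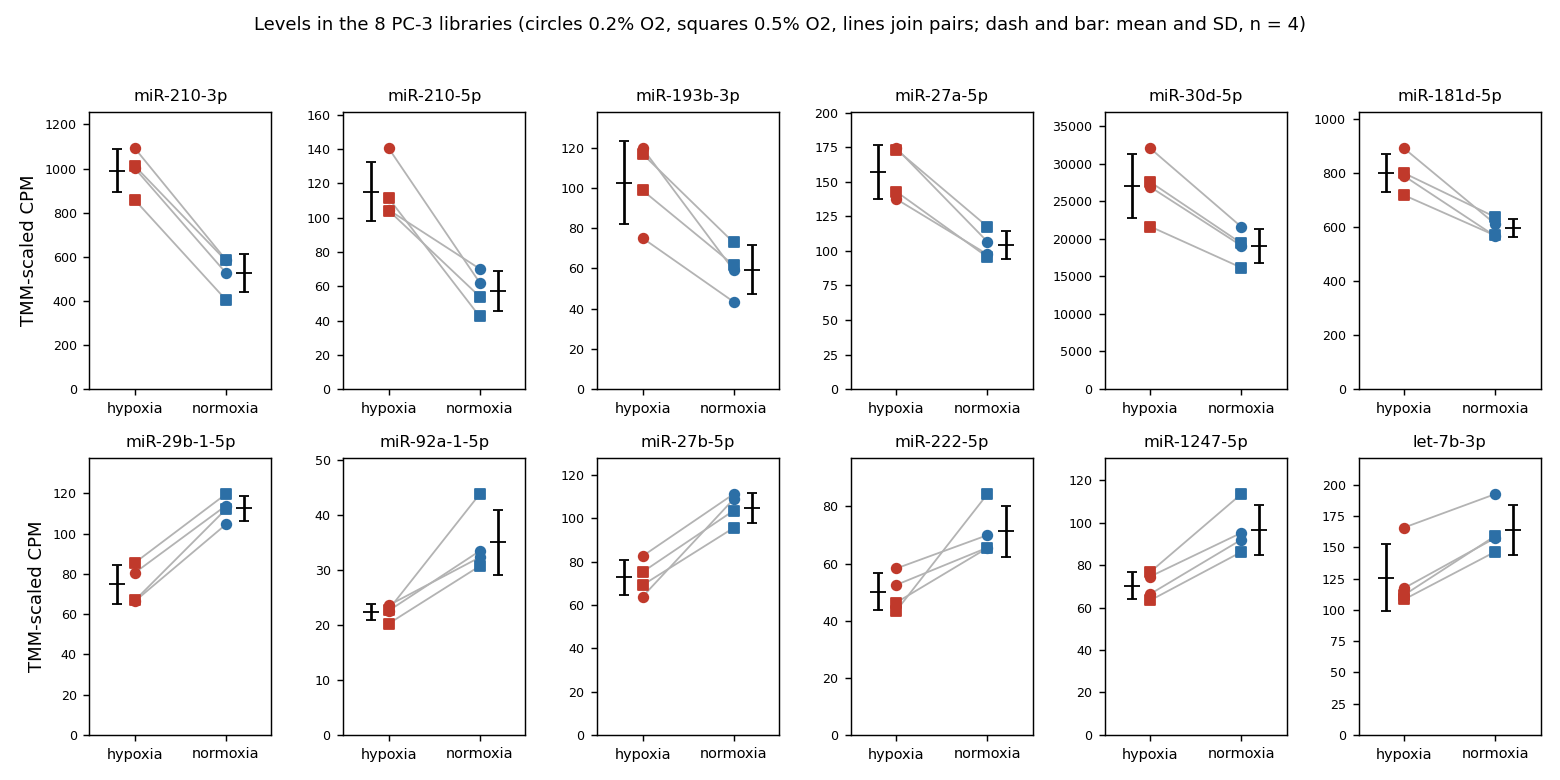
TMM-scaled CPM of 12 miRNAs in the 8 PC-3 libraries, hypoxia left and normoxia right, with circles for 0.2% O2, squares for 0.5% O2, lines joining pairs, and the mean with its SD (n = 4). Every pair moves up in the 6 miRNAs of the upper row and down in the 6 of the lower row, and let-7b-3p is the only 1 of the 12 whose groups overlap.

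In the miR-30 family, whose members repress genes of autophagy and of the epithelial to mesenchymal transition, 4 of 11 tested entries rose and none fell, all 4 from the miR-30b and miR-30d hairpins. Among all tested miRNAs, 6.97% rose and 6.01% fell. miR-30d-5p, the most abundant called miRNA after miR-24-3p, had 32019.9, 26882, 27548 and 21620.3 CPM in hypoxia and 21594, 19079, 19405 and 16156 CPM in normoxia. The lowest hypoxia library lay just above the highest normoxia library. The means were 27018 ± 4260.4 and 19059 ± 2234 CPM (SD, n = 4 each), a 1.41-fold rise (log2 0.50 ± 0.052 SE, adjusted p = 7.21e-06, edgeR). It took 2.70% of all counts in hypoxia and 1.91% in normoxia. miR-30b-3p, the rare arm of its hairpin, had 58.0, 48.6, 57.6 and 39.9 CPM in hypoxia and 32.9, 32.9, 31.8 and 27.8 CPM in normoxia, without overlap (log2 0.71 ± 0.11 SE, adjusted p = 0.000313, edgeR). The other called arms were miR-30d-3p (log2 0.61) and miR-30b-5p (log2 0.34), again without overlap between groups. miR-30a-5p, miR-30c-5p and miR-30e-5p differed by -0.07, -0.11 and -0.03 on the log2 scale and were not called. The family median was -0.05, against -0.00083 for all tested miRNAs.

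In the miR-181 family, the called arms differed in direction by gene. miR-181c and miR-181d lie together at chr19:13874699-13875011, and all 3 tested arms of that pair rose without overlap. Over all tested miRNAs 6.97% rose, and 5.29% had every hypoxia library above every normoxia library. miR-181d-5p had 890.2, 788, 799 and 717 CPM in hypoxia and 611, 566, 636 and 568 CPM in normoxia (log2 0.42 ± 0.060 SE, adjusted p = 0.000104, edgeR). miR-181c-3p had 569.8, 485, 503 and 513 CPM in hypoxia and 381, 374, 391 and 329 CPM in normoxia (log2 0.49 ± 0.067 SE, adjusted p = 8.04e-05, edgeR), and miR-181c-5p rose by log2 0.33. From the miR-181a and miR-181b genes at chr1:198858873-198859153, the minor arms were lower instead. miR-181a-3p had 335, 179, 205 and 249 CPM in hypoxia and 342, 334, 348 and 329 CPM in normoxia, so that the first 0.2% hypoxia library was within the normoxia range and the other 3 were below it. It fell by 0.51 on the log2 scale (adjusted p = 0.0252, edgeR), a call lost without the 0.5% pair of replicate 1 (0.231) or the 0.2% pair of replicate 2 (0.0833), and without the pair block (0.0867). miR-181b-3p had 8.76, 4.42, 7.25 and 5.32 CPM in hypoxia and 13.4, 8.65, 14.8 and 11.8 CPM in normoxia (log2 -0.89 ± 0.21 SE, adjusted p = 0.00675, edgeR), with a small overlap, and its call was lost with DESeq2 and without the pair block. The abundant arms miR-181a-5p (log2 0.05) and miR-181b-5p (log2 -0.00) were not called. Over the 4 tested miRNAs with the seed ACAUUCA, the summed level was 15525 ± 1463 CPM in hypoxia. In normoxia it was 14625 ± 1521 CPM (SD, n = 4 each). These SDs ignore the pairing, and a change of the seed total was not tested.

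Other rises were found across a wide range of abundance. miR-3919, which lies inside the gene IQCJ-SCHIP1, had 26.3, 35.3, 45.4 and 36.1 CPM in hypoxia and 13.4, 22.96, 18.9 and 16.5 CPM in normoxia, without overlap (log2 0.99 ± 0.14 SE, adjusted p = 0.000104, edgeR). miR-34a-5p, a direct p53 target that restrains the cell cycle, had 31.3, 35.8, 37.4 and 37.6 CPM in hypoxia and 25.6, 18.3, 28.8 and 24.5 CPM in normoxia. Its groups were separate and it rose by log2 0.54 ± 0.14 SE (adjusted p = 0.0132, edgeR), but the call was lost with DESeq2 and without the 0.2% pair of replicate 2 (0.112). PC-3 is known to lack functional p53. miR-125a-3p had 59.3, 76.6, 60.7 and 64.2 CPM in hypoxia and 49.0, 39.6, 39.2 and 45.7 CPM in normoxia (log2 0.57 ± 0.11 SE, adjusted p = 0.00208, edgeR), while its abundant partner miR-125a-5p, at log2 0.07, was not called. miR-760 rose by log2 0.59 (adjusted p = 0.0101, edgeR), a call lost with DESeq2 and without the 0.2% pair of replicate 2 (0.0860), and miR-26b-3p rose by log2 0.39 (0.00227). let-7i-5p had 10237, 8609, 9097 and 8682 CPM in hypoxia and 8986, 7564, 7296 and 8020.1 CPM in normoxia (log2 0.20, adjusted p = 0.0163, edgeR), with overlap, and its call was lost with the authors' factors (0.217), without the pair block (0.205) and without the 0.2% pair of replicate 1 (0.0722) or 2 (0.0829). miR-192-5p rose by log2 0.17 (adjusted p = 0.0364, edgeR), a call lost whichever of the 4 pairs was left out (0.0682 to 0.188), with library size alone (0.105), without a filter (0.159), with the authors' factors (0.305) and without the pair block (0.339).

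Among the miRNAs that fell, miR-29b-1-5p, the minor arm of a hairpin whose main arm represses collagen genes, had 66.4, 80.5, 66.8 and 85.5 CPM in hypoxia and 104, 114, 112 and 119.5 CPM in normoxia. The highest hypoxia library lay well below the lowest normoxia library, and it fell by 0.60 on the log2 scale (SE 0.083, adjusted p = 9.14e-05, edgeR). The main arm miR-29b-3p, which also comes from a second gene, differed by -0.12 and was not called. miR-1247-5p had 66.4, 74.6, 63.4 and 76.7 CPM in hypoxia and 91.9, 95.2, 86.1 and 113 CPM in normoxia, without overlap (log2 -0.46 ± 0.083 SE, adjusted p = 0.0011, edgeR). Its rare other arm miR-1247-3p, singled out after its values were seen, had 6.06, 1.47, 3.82 and 11.8 CPM in hypoxia and 13.7, 16.6, 18.9 and 18.4 CPM in normoxia (log2 -1.52 ± 0.28 SE, adjusted p = 0.00133, edgeR). The hairpin, at chr14:101560287-101560422 in DIO3OS, was the only 1 of 116 with both arms tested in which both were called lower.

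The polycistron of miR-17 to miR-92a-1 on chromosome 13 is driven by MYC and promotes proliferation. Among 18 tested miRNAs of it and its paralogues none rose and 3 fell, with a median of -0.07 on the log2 scale, where 6.01% of all tested miRNAs fell. The falls numbered 4 with the authors' factors or DESeq2 size factors, 5 with library size alone and 2 without the pair block. miR-92a-1-5p had 22.6, 23.6, 20.2 and 22.8 CPM in hypoxia and 33.4, 32.3, 30.7 and 43.8 CPM in normoxia, without overlap (log2 -0.64 ± 0.13 SE, adjusted p = 0.00278, edgeR). Its abundant arm miR-92a-3p differed by -0.04 and was not called. miR-20a-5p had 1419, 1539, 1598 and 1726 CPM in hypoxia and 1683, 1684, 1950.3 and 2093 CPM in normoxia. The 0.5% hypoxia library of replicate 2 overlapped the 0.2% controls, and the fall was 0.24 on the log2 scale (adjusted p = 0.00544, edgeR), a call lost without the 0.2% pair of replicate 1 (0.0572) and without the pair block (0.0867). miR-25-5p fell by 0.43 (adjusted p = 0.00308, edgeR), with overlapping groups.

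miR-221 and miR-222 repress the cell cycle inhibitor CDKN1B, and both of their minor arms fell while neither abundant arm was called. Among all tested miRNAs, 6.01% fell. miR-222-5p had 58.3, 52.5, 43.5 and 46.3 CPM in hypoxia and 69.9, 65.5, 84.3 and 65.4 CPM in normoxia (log2 -0.50 ± 0.11 SE, adjusted p = 0.00505, edgeR), and miR-222-3p differed by 0.00. miR-221-5p had 576, 471, 623 and 602 CPM in hypoxia and 637, 669.8, 739 and 666 CPM in normoxia (log2 -0.26 ± 0.067 SE, adjusted p = 0.0145, edgeR), again without overlap, but its call was lost without the 0.2% pair of replicate 1 (0.0572) or 2 (0.112) and without the pair block (0.123). let-7b-3p and let-7a-3p, which have the same seed and hairpins at chr22:46112749-46113768, fell by 0.39 (adjusted p = 0.00208, edgeR) and 0.35 (0.0027). let-7a-3p also comes from a hairpin on chromosome 9, and both calls were lost without the pair block (0.0867 and 0.155). let-7b-3p had 166, 117, 112 and 108 CPM in hypoxia and 193, 157, 159 and 146 CPM in normoxia. Each pair moved down, but the first 0.2% hypoxia library overlapped the controls of the others. Summed over the 4 tested miRNAs with that seed, the level was 387.5 to 499 CPM in hypoxia and 473 to 559 CPM in normoxia.

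The remaining falls named by rule included several that rested on the 0.2% pairs. miR-188-5p had 40.4, 57.4, 32.1 and 57.4 CPM in hypoxia and 66.0, 70.2, 60.6 and 67.3 CPM in normoxia, without overlap (log2 -0.52, adjusted p = 0.00461, edgeR), and its call was lost without the 0.2% pair of replicate 1 (0.0694) and without the pair block (0.0919). miR-128-1-5p had 32.7, 34.9, 32.4 and 45.6 CPM in hypoxia and 47.6, 52.9, 57.3 and 48.5 CPM in normoxia (log2 -0.51, adjusted p = 0.00739, edgeR), and its call was lost without the 0.2% pair of replicate 1 (0.0690) or 2 (0.0838) and with DESeq2 (0.0629). The same omissions ended the calls of miR-4521 (0.121 and 0.0777), miR-766-3p (0.222 and 0.144), miR-424-3p (0.138 and 0.0592), miR-486-5p (0.156 and 0.166) and miR-21-3p (0.0894 and 0.243), whose log2 fold changes were -0.51, -0.36, -0.24, -0.30 and -0.24. These 5 calls were also lost without the pair block (0.0867 to 0.328), those of miR-4521, miR-766-3p and miR-424-3p with DESeq2 (0.0785 to 0.202), that of miR-4521 in the fit of 24 libraries (0.0510) and that of miR-21-3p without the 0.5% pair of replicate 1 (0.166). miR-551b-5p and miR-500a-3p, singled out after their values were seen, fell by 1.13 (adjusted p = 0.00129, edgeR) and 0.33 (0.00308) on the log2 scale, both without overlap, and the miR-500a-3p call was lost without the pair block (0.0867).

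Each miRNA was then classed by its share of its hairpin. Of 117 tested miRNAs that were the less abundant arm of their hairpin, 8 rose and 14 fell, and their median log2 fold change was -0.10, where 6.97% of all tested miRNAs rose and 6.01% fell. Of 201 that were the more abundant arm, 18 rose and 7 fell, with a median of 0.02 that became -0.01 with library size alone and -0.02 with the authors' factors. These 18 include miR-365a-3p and miR-365b-3p, which have the same counts. The more abundant arms gave 16 rises and 15 falls with library size alone, 12 and 9 with the authors' factors, and 8 and 1 without the pair block. The less abundant arms gave 8 and 20, 7 and 15, and 7 and 7 under these settings. Among 98 others, with no second arm assigned in the table, 3 rose and 4 fell. Those falls include miR-29b-1-5p and miR-181b-3p, described above as minor arms, so the less abundant class leaves out some minor arms. In 116 hairpins with both arms tested, the less abundant arm alone fell in 13 and alone rose in 2, namely miR-125a-3p and miR-26b-3p. The more abundant arm alone rose in 3 (let-7i-5p, miR-31-5p and miR-744-5p) and alone fell in 3 (miR-20a-5p, miR-335-3p and miR-500a-3p). Here alone means only that the other arm did not pass the threshold. The other arms of these last 3 were also negative (log2 -0.36 for miR-20a-3p, -0.19 for miR-335-5p and -0.455 for miR-500a-5p). Over the 4 omissions of a pair, the miR-31-5p call was kept in 0, and the calls of miR-744-5p and miR-335-3p in 2 each. Both arms rose in 6 hairpins, those of miR-210, miR-27a, miR-30b, miR-30d, miR-181c and miR-873, and no hairpin had arms called in opposite directions. The miR-873-5p call was lost with DESeq2 (adjusted p = 0.186). By edgeR it was lost with the authors' factors (0.0948), without the pair block (0.193) and without the 0.2% pair of replicate 1 (0.237) or 2 (0.146). No test of the difference between arm classes was made, and arms of 1 hairpin are not independent of each other.

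**Figure D2:**
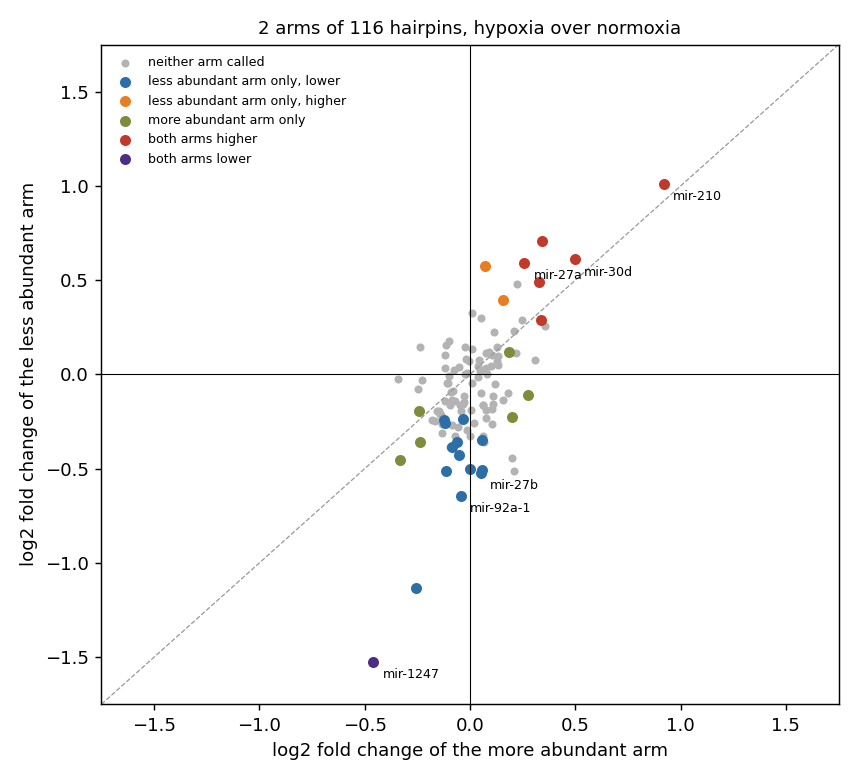
Log2 fold change, hypoxia over normoxia, of the less abundant arm (vertical axis) against the more abundant arm (horizontal axis) in 116 hairpins, with the line of equal change dashed. Both arms of miR-210 and miR-30d lie near that line at the upper right, and those of miR-1247 at the lower left. The 13 hairpins in which only the less abundant arm was called lower form a column below 0.

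Lists of related miRNAs are given by their counts, to be read against the 6.97% of all tested miRNAs that rose and the 6.01% that fell. Of 33 tested entries under 18 names reported as induced by hypoxia, 11 rose and 2 fell, with a median log2 fold change of 0.11. The count was 8 and 2 with the authors' scaling factors and 10 and 4 with library size alone. Of 8 tested entries under names reported to target the HIF1A messenger none rose and 1, miR-20a-5p, fell, with a median of -0.08. In that list 2 fell with each other scaling, and none without the pair block. In the list of miR-23, miR-27 and miR-24, 3 of 9 rose and 1 fell (1 and 1 with the authors' factors or without the pair block), and the median was 0.18. Among 19 let-7 and miR-98 entries 1 rose and 2 fell, among 11 of the miR-15, miR-16 and miR-424 family 1 fell, and among 16 linked to the androgen receptor 2 rose and 1 fell. The medians of these last 3 lists and of the miR-181 family were within 0.03 of 0 and changed sign with the scaling. Of 7 miR-29 entries 1 fell (median -0.12), or 3 with library size alone. Of 4 p53-regulated entries 2, miR-34a-5p and miR-192-5p, rose (median 0.18), or 1 with library size alone, with the authors' factors or without the pair block.

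Markers of other sources ran from near 0 to about the level of miR-210-3p. Of 9 blood or serum entries 1 was tested, miR-486-5p, which fell, and the list summed to 210.6 to 306.6 CPM in hypoxia and 290.3 to 357.9 CPM in normoxia, with miR-451a at 0.982 CPM or less and miR-144-3p at 0.941 CPM or less. Its part in other results was not tested. The neuronal list summed to 1076 to 1157 CPM in hypoxia and 997.6 to 1166 CPM in normoxia, with miR-218-5p averaging 576 CPM in hypoxia and 525 CPM in normoxia and miR-9-5p 309 CPM in hypoxia and 319 CPM in normoxia. None of its 9 tested entries was called, and miR-124-3p was at 0 in all 8 libraries. In the stromal list miR-1-3p averaged 8.79 CPM in hypoxia and 4.64 CPM in normoxia, a log2 difference of 1.01 that missed the threshold (adjusted p = 0.0503, edgeR). With each other scaling 1 of the 2 tested stromal entries was called higher. miR-133a-3p, too rare to be tested, averaged 4.43 CPM in hypoxia and 1.37 CPM in normoxia, and the part of stromal markers in other results was not tested. Entries that overlap other RNA classes summed to 379.4 to 1077 CPM in hypoxia and 487.7 to 1132 CPM in normoxia, and 1 of 6 tested, miR-4521, fell. The median GC content of mature sequences was 53.5% for miRNAs that rose, 52.3% for those that fell and 47.8% for those not called. A sequence was at hand for 24 of the 29 rises, 20 of the 25 falls and 325 of the 362 not called. The called arms of miR-30b and miR-30d were among those without one. The part of GC content in the calls was not tested.

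At 0.2% O2 alone, 36 of 442 miRNAs (8.14%) were called, 21 higher (4.75%) and 15 lower (3.39%), in a fit over all 24 PC-3 libraries. At 0.5% O2 alone 21 (4.75%) were called, 11 higher (2.49%) and 10 lower (2.26%). All 11 miRNAs higher at 0.5% were also higher at 0.2%, where they made up 52.4% of the rises. They were both arms of miR-210, miR-27a-5p, miR-193b-3p, both arms of miR-181c, miR-181d-5p, miR-30b-3p, both arms of miR-30d, and miR-3919. Only 4 falls were shared (26.7% of those at 0.2%, 40.0% of those at 0.5%), those of both arms of miR-1247, miR-29b-1-5p and let-7b-3p. All 54 miRNAs called over both levels had the same sign at each, which the pooling partly fixes. Across all 442 miRNAs, which are not independent of each other, the effects at 0.2% and 0.5%, with separate controls, had a Pearson r of 0.39 and a Spearman rho of 0.422.

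No miRNA differed in its effect between 0.2 and 0.5% O2 (0 of 442, 0.0%, edgeR, with 19, or 4.3%, at an unadjusted p below 0.05, and 0 by DESeq2 with 7 unadjusted). The effect at 0.2% minus that at 0.5% was -0.04 ± 0.125 SE for miR-210-3p, 0.03 ± 0.182 SE for miR-27a-5p, 0.02 ± 0.164 SE for miR-29b-1-5p and 0.05 ± 0.0998 SE for miR-30d-5p. It was -0.27 ± 0.204 SE for miR-210-5p and 0.17 ± 0.111 SE for miR-181d-5p. With 2 pairs a level, differences of the size of these standard errors were not detectable.

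The effects were then set against the other oxygen levels, in the same fit of 24 libraries and 12 pairs. miR-210-3p rose at all 6 levels, with log2 fold changes of 0.64, 0.90, 0.94, 0.73, 0.63 and 0.42 from 0 through 0.2, 0.5, 1 and 2 to 5% O2 (adjusted p = 0.000193, 7.74e-07, 5.08e-07, 2.86e-05, 0.000201 and 0.0401, edgeR). At 0% O2 it had 1031 and 908 CPM in hypoxia and 605 and 641 CPM in normoxia, and at 5% O2 753 and 856 CPM in hypoxia and 526 and 685 CPM in normoxia. miR-30d-5p rose at every level up to 2% (log2 0.45, 0.52, 0.47, 0.45 and 0.38) and was at 0.14 at 5%, not called. miR-193b-3p was called at 0, 0.2, 0.5 and 1% (log2 0.91, 0.90, 0.68 and 0.68) and not at 2% (-0.06) or 5% (0.46).

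miR-27a-5p and miR-29b-1-5p were called at 0, 0.2 and 0.5% and at no higher level. The log2 fold changes of miR-27a-5p were 0.51, 0.60, 0.57, 0.11, 0.08 and -0.16 from 0 to 5% O2, and those of miR-29b-1-5p were -0.79, -0.59, -0.61, -0.07, 0.01 and 0.02. At 0% O2 miR-29b-1-5p had 50.03 and 54.5 CPM in hypoxia and 88.0 and 93.1 CPM in normoxia. At 2% O2 it had 96.3 and 69.3 CPM in hypoxia and 91.0 and 73.0 CPM in normoxia, where each hypoxia library sat close to its own control. miR-92a-1-5p was lower at 0, 0.5 and 1% (log2 -1.01, -0.78 and -1.16), with -0.53 at 0.2% (adjusted p = 0.123, edgeR), and near 0 at 2 and 5% (-0.01 and -0.09).

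**Figure D3:**
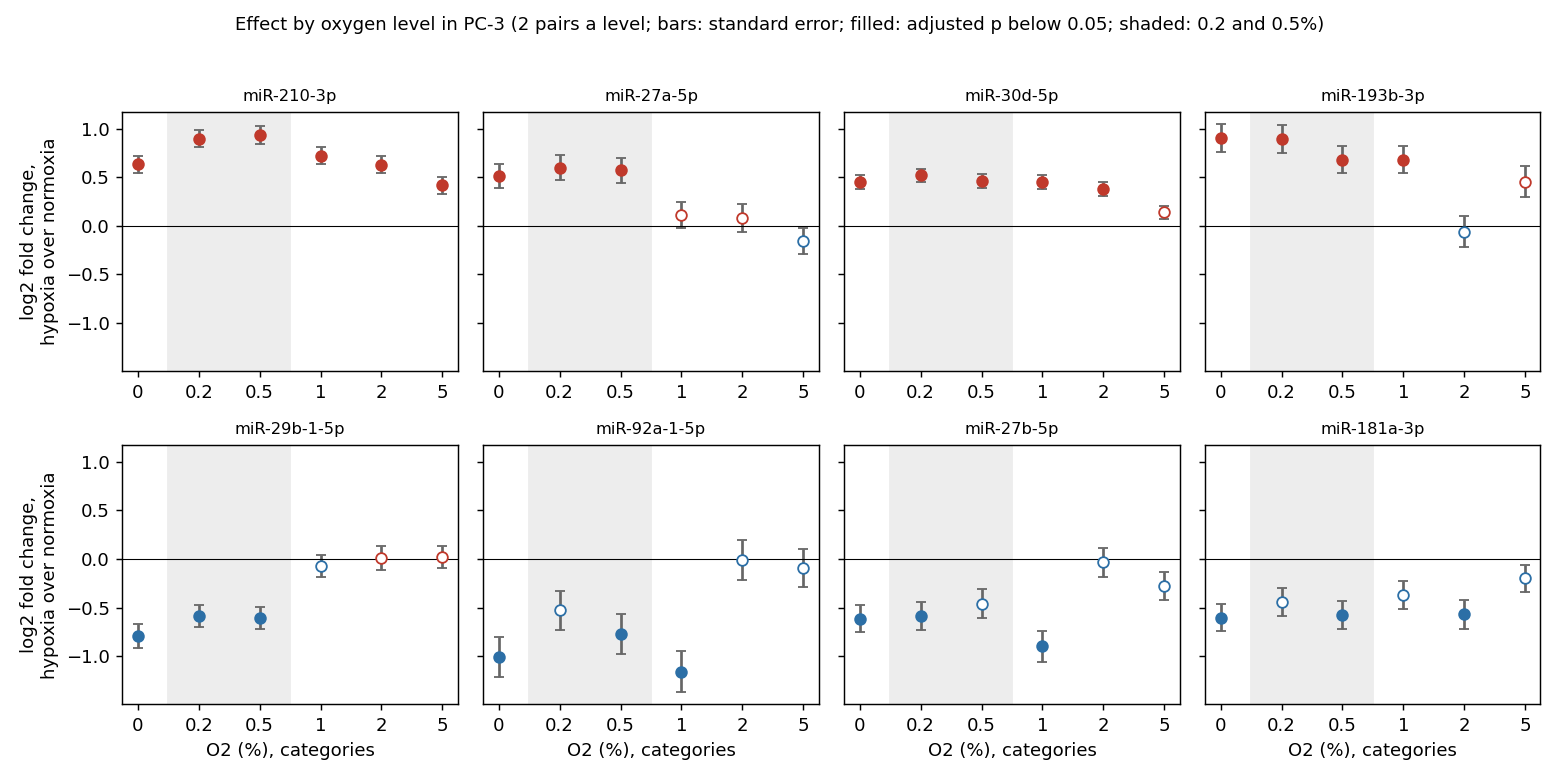
Log2 fold change, hypoxia over normoxia, with its SE for 8 miRNAs at the 6 oxygen levels in PC-3, levels spaced as categories, 2 pairs a level, filled where the adjusted p was below 0.05 and shaded at 0.2 and 0.5%. miR-210-3p is above 0 throughout, whereas miR-27a-5p and miR-29b-1-5p lie near 0 from 1% upward.

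Tests of these differences passed for few miRNAs. Against the mean effect at 1 and 2% O2, the effect at 0.2 and 0.5% differed for 1 of 442 (0.226%), miR-29b-1-5p, by -0.57 ± 0.117 SE (adjusted p = 0.0405, edgeR), and this call was kept in 2 of 10 alternatives (0.0491 to 1.0) and lost whichever of the 4 pairs was left out. At an unadjusted p below 0.05, 5.88% of miRNAs differed. Against 5% O2 it differed for 3 (0.679%): miR-27a-5p by 0.74 ± 0.163 SE (0.0399), miR-210-3p by 0.50 ± 0.108 SE (0.0399) and miR-29b-1-5p by -0.62 ± 0.142 SE (0.0417). Of 10 alternatives, the miR-27a-5p call was kept in 5 (0.00446 to 0.562), that of miR-210-3p in 7 (0.0107 to 0.731) and that of miR-29b-1-5p in 5 (0.0294 to 0.731). None of these 3 was called without the 0.5% pair of replicate 2 or without the 0.2% pair of replicate 1. No alternative left out a 5% pair. In the 5% pair of replicate 1, miR-143-3p had 1160 CPM in hypoxia and 1247 CPM in normoxia. In that of replicate 2 it had 14.1 and 12.6 CPM. The part of this in the differences was not tested. Against 0% O2 no miRNA differed (0 of 442, 0.0%, edgeR, with 26, or 5.88%, unadjusted, and 0 by DESeq2 with 10 unadjusted).

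Signs elsewhere followed those at 0.2 and 0.5% O2 most at the neighbouring levels. Of the 29 miRNAs that rose, 27 had a positive log2 fold change at 0% O2, 28 at 1%, 26 at 2% and 18 at 5%. Over all tested miRNAs, 54.1, 53.8, 50.5 and 49.3% were positive at these levels. Of the 25 that fell, 24, 24, 21 and 16 were negative at these levels, against 45.9, 46.2, 49.5 and 50.7% of all tested miRNAs. Fitted on the other 16 PC-3 libraries, which share none with the 8, the medians were 0.26 for the rises and -0.25 for the falls. In the 8 they were 0.49 and -0.43, but these miRNAs were chosen by their change there, which can inflate the values. The 16 include 5% O2, where the medians were 0.07 and -0.11.

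The same oxygen levels in 22Rv1, which retains the androgen receptor, rested on 3 pairs, since the second 0.2% hypoxia library had no control in the data used here. Both levels had equal weight, so the single 0.2% pair counted as much as the 0.5% pairs together. That pair was not left out in any alternative. The effect in PC-3 minus that in 22Rv1 was called for 56 of 570 miRNAs (9.82%, edgeR), 16 of them (2.81%) more positive and 40 (7.02%) more negative in PC-3. Scaling by library size alone moved the median difference by 0.24 on the log2 scale and gave 54 more positive and 18 more negative in PC-3, so the balance of directions cannot be read. The 22Rv1 library of 0.5% hypoxia replicate 1 stood apart, with 238986 CPM of miR-191-5p against 152382 and 181334 CPM in the other 22Rv1 hypoxia libraries, and 38 miRNAs were called without its pair and 91 without the pair of replicate 2. Without the pair block 6 were called. Of the 29 miRNAs that rose in PC-3, 27 were measured in 22Rv1, where 24 were positive. Of the 25 that fell, 24 were measured there and 15 were negative. Over all tested miRNAs 51.1% were positive and 48.9% negative in 22Rv1. miR-3919, miR-222-5p and miR-6744-5p were listed at 0 in the 6 libraries of 22Rv1.

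miR-210-3p had 990.1 ± 97.6 CPM in hypoxia and 526 ± 84.7 CPM in normoxia in PC-3, and 2645, 2329 and 2708 CPM in hypoxia and 1211, 1370 and 1287 CPM in normoxia in 22Rv1 (0.2% replicate 1, then 0.5% replicates 1 and 2). The difference of its effects was -0.10 ± 0.156 SE on the log2 scale and was not called (adjusted p = 0.789, edgeR). miR-210-5p rose less in PC-3, where it averaged 115 ± 17.2 CPM in hypoxia and 57.2 ± 11.9 CPM in normoxia, than in 22Rv1, which had 352, 492 and 284 CPM in hypoxia and 75.6, 87.1 and 110 CPM in normoxia. Its effects differed by -1.05 (adjusted p = 0.000339, edgeR), called in each of 12 alternatives, none of which left out the 22Rv1 pair at 0.2%. miR-27a-5p also rose less in PC-3 (157 ± 19.5 CPM in hypoxia, 104 ± 10.1 CPM in normoxia) than in 22Rv1 (76.8, 77.7 and 61.4 CPM in hypoxia, 22.9, 25.4 and 21.8 CPM in normoxia), by -1.06 (adjusted p = 0.000453, edgeR) and again in each alternative. CPM of the lines were scaled in separate fits, and each difference was tested within 1 model.

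Other called differences had effects of opposite sign in the lines or rested mainly on 1 line. miR-26b-3p was higher in hypoxia in PC-3 and lower in 22Rv1 (172, 102 and 151 CPM in hypoxia, 193, 186 and 231 CPM in normoxia), a difference of 0.83 (adjusted p = 0.000339, edgeR) kept in 11 of 12 alternatives. miR-29b-1-5p fell in PC-3 and was rare in 22Rv1 (8.95, 3.997 and 8.36 CPM in hypoxia, 5.57, 5.37 and 4.94 CPM in normoxia), with a difference of -1.08 (adjusted p = 0.023, edgeR) kept in 8 of 12. miR-4521 differed by 1.73 (adjusted p = 0.00216, edgeR, kept in 11 of 12), and in 22Rv1 it had 9.64, 0 and 6.39 CPM in hypoxia and 24.3, 16.7 and 41.9 CPM in normoxia. miR-181a-3p differed by -0.94 (0.00502, kept in 9 of 12) and miR-34a-5p by 0.61 (0.0451, kept in 5 of 12). miR-874-3p, not called in PC-3 itself, differed by -1.22 (adjusted p = 0.00136, edgeR) in each alternative, with 23.1, 26.3 and 24.6 CPM in hypoxia and 8.50, 8.20 and 9.88 CPM in normoxia in 22Rv1.

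**Figure D4:**
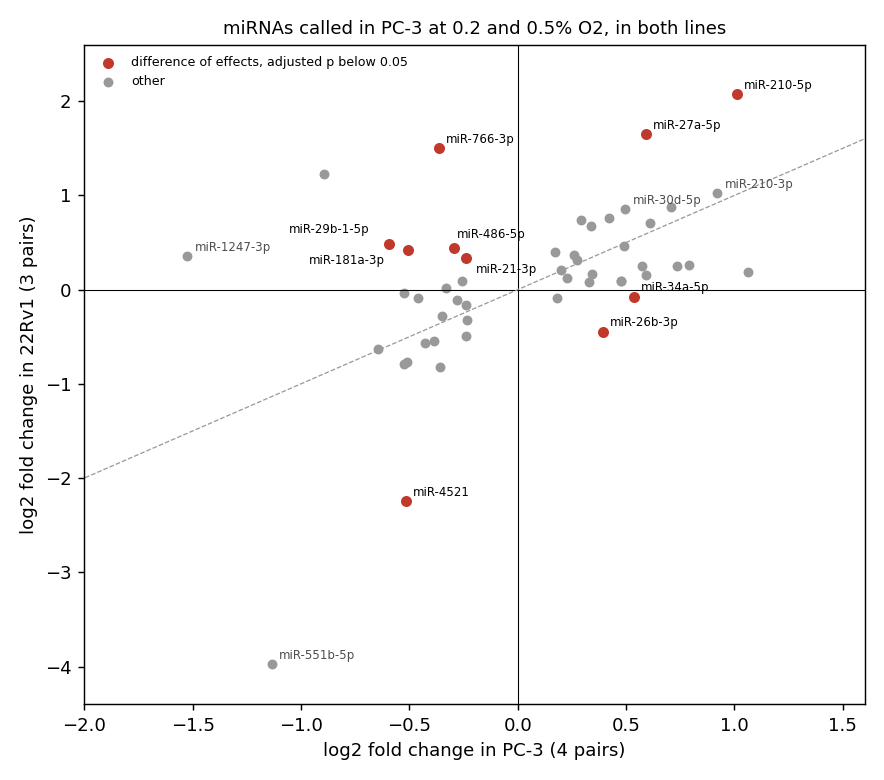
Log2 fold change, hypoxia over normoxia at 0.2 and 0.5% O2, in PC-3 (horizontal axis) and 22Rv1 (vertical axis) for 51 miRNAs called in PC-3 and measured in 22Rv1, with the line of equal change dashed and 10 with a called difference in red. miR-210-3p lies on the line, miR-210-5p and miR-27a-5p lie above it, and miR-26b-3p and miR-34a-5p lie below 0 in 22Rv1.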

How the data were processed

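Small RNA of PC-3 and 22Rv1 cells was sequenced after 24 h in hypoxia or in 95% air. The submitters' processing notes name FastQC and the genome hg19, with the aligner and counter not given in the sources used here. Raw counts of reads for 1006 mature miRNA entries in 47 libraries were deposited by the authors and used unchanged. A second table deposited by the authors holds CPM scaled by TMM, and its scaling factors served as an alternative. Sequences and GRCh38 coordinates come from RefSeq by miRNA name, which matched 868 of 1006 entries and 369 of 416 tested. Positions were not converted between builds.

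The tests ran in edgeR 4.0.16 under R 4.3.3 (TMM, robust quasi-likelihood test). The 8 libraries were fitted with the oxygen level and replicate letter as pair block, over the 416 miRNAs that reached 5 CPM in 4 or more libraries (residual degrees of freedom 3, biological coefficient of variation 6.19%). Levels were compared in a fit of all 24 PC-3 libraries (12 pairs, 442 miRNAs), and lines in a fit of 46 libraries (23 pairs, 570 miRNAs). The threshold for a call was 0.05 after Benjamini-Hochberg adjustment. Tests were two-sided. Hypoxia and control libraries of the same letter deviated together at every level (correlation of deviations 0.338 to 0.697 over 416 miRNAs), and the shared letter in the labels is the source of the pairing. Depth ranged from 1930784 to 3571778 counts. The script was tested on simulated data.

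Alternatives were no block, DESeq2 1.42.0 size factors or Wald test, library size alone, no filter or at least 20 CPM, the authors' factors, all 24 libraries, and leaving out each pair. The pairs of 22Rv1 at 0.5% were also left out in turn, chosen after seeing the data. Named miRNAs were the calls of largest fold, up to 12 per direction, that averaged at least 20 CPM and moved one way in all 4 pairs, up to 3 per direction at each level alone, up to 5 per direction in each difference, both arms of miR-210, the 5 most abundant, and up to 4 per list by smallest p. Members and lists were chosen with earlier results of these data known.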

Additional observations from a re-analysis of the deposited data

Results flagged for a closer look

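In 6 of 150 groups of 4 libraries examined for named miRNAs, 1 library lay far from the other 3 by Dixon's gap ratio (critical value 0.829). Chance alone flags about 1 in 20 groups. All 6 were in normoxia, and no named miRNA had such a library in hypoxia. In the 0.5% control of replicate 1, miR-760 was highest at 21.07 CPM, miR-7974 was highest at 752.4 CPM and miR-1260b was lowest at 205.6 CPM. In the 0.2% control of replicate 1, miR-26b-3p was highest at 158.8 CPM. In the 0.2% control of replicate 2, miR-222-3p was highest at 30360 CPM, and in the 0.5% control of replicate 2, miR-215-5p was highest at 25.42 CPM.

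Differences of the hypoxia effect between oxygen levels in PC-3 passed the test in 4 cases. For miR-29b-1-5p the effect at 0.2 and 0.5% minus that at 1 and 2% O2 was -0.5684 on the log2 scale. Minus that at 5% O2 it was 0.7416 for miR-27a-5p, 0.4992 for miR-210-3p and -0.6219 for miR-29b-1-5p.

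Between the lines, the effect at 0.2 and 0.5% O2 in PC-3 minus that in 22Rv1 was 1.732 for miR-4521, 1.124 for miR-7974, 0.8317 for miR-26b-3p, 0.7966 for miR-183-3p, 0.7414 for miR-1268a and 0.6142 for miR-34a-5p. It was -1.859 for miR-766-3p, -1.429 for miR-455-3p, -1.22 for miR-874-3p, -1.078 for miR-29b-1-5p, -1.063 for miR-27a-5p, -1.053 for miR-210-5p, -0.9407 for miR-181a-3p, -0.7377 for miR-486-5p and -0.5706 for miR-21-3p. miR-1268a has the same counts as miR-1268b. miR-766-3p and miR-455-3p were below 10 CPM in each of the 6 22Rv1 libraries.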

How the results depend on the processing

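No called effect of a named miRNA changed sign in the alternatives, but the balance of higher and lower calls turned with library size alone (28 higher and 40 lower over both levels, 54 and 18 between the lines, in place of 16 and 40 there). Without the replicate block, 26 miRNAs were called over both levels in place of 54, 6 in place of 36 at 0.2% O2 and 4 in place of 21 at 0.5% O2. The differences of effects without the block gave 0 in place of 1 (against 1 and 2% O2), 0 in place of 3 (against 5% O2) and 6 in place of 56 (between lines). Leaving out a pair gave 32 to 55 calls over both levels, 8 to 19 at 0.2% O2, 7 to 10 at 0.5% O2, 0 to 1 for 0.2% minus 0.5%, 0 in each case against 1 and 2%, 0 to 6 against 5% and 32 to 91 between lines. DESeq2's Wald test called 18 at 0.2% O2, and it, DESeq2 size factors and library size alone each called 0 against 1 and 2% O2. Without a filter on low counts 2 were called against 1 and 2% O2 and 6 against 5% O2, and library size alone gave 5 against 5% O2. With library size alone the share of higher calls was 41.2% in place of 53.7% over both levels and 38.5% in place of 52.4% at 0.5% O2. Of the 54 calls, 23 were kept in every alternative, 34 in every alternative other than no block and 29 in every omission of a pair. Omitting the first 0.2% pair lost 22, omitting the second 22, and omitting the 0.5% pairs 5 and 4. The cause was not tested. Residual degrees of freedom were 3, and low counts limit miRNAs under 20 CPM most.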
